A study of Mus musculus with 12 samples.

Results

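ESRP1 contact regions that lie inside annotated pseudogenes were examined in mouse epidermis. A pseudogene is a copy or relic of a gene that is held to make no functional protein, and many arose when a messenger RNA was copied back into DNA and inserted elsewhere in the genome. Such processed copies carry the exon sequence of their parent gene without its introns and often sit inside an unrelated host gene. ESRP1 is an epithelial RNA-binding protein best known as a regulator of alternative splicing, and its binding has been tied to UGG-rich motifs.

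The contacts came from enhanced crosslinking and immunoprecipitation (eCLIP), in which ultraviolet light fixes a protein to the RNA it touches and reverse transcription tends to stop at the fixed nucleotide. All animals were Esrp1FLAG/FLAG pups at postnatal day 1, so that both the immunoprecipitates and the inputs carried the FLAG tag, and no untagged control was among the labelled libraries. The 12 libraries were 6 CLIP samples taken with a FLAG antibody and 6 inputs, from epidermis of the back skin, after excision of membrane between 75 and 140 kDa. The authors deposited 3 lists of single-nucleotide sites with strand and score, each called on 2 CLIP replicates together with input. There were 73602 sites in list 1, 40014 in list 2 and 53864 in list 3. The lists give no read counts, so depth is unknown.

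Regions were chosen by the positions of the sites. Neighbouring sites of a list no more than 10 nt from each other on 1 strand were joined, and the lists were then merged within 10 nt. A region was kept when it held sites of all 3 lists, when its middle lay in a span annotated with any pseudogene biotype on GRCm38, and when no transfer RNA or small RNA gene lay there. This gave 994 regions, which was 10.3% of the 9649 regions found in all 3 lists (95% exact binomial interval 9.70 to 10.9) and was drawn from 45738 regions found in any list. Regions were found in all 3 lists for 33.0% of 3016 in pseudogene spans, against 21.1% of all 45738. The first share is part of how the regions were chosen and is given as a description. A further 1331 regions in pseudogene spans rested on 1 list and 691 on 2 lists. At the border of the rule, 9 of the 994 had their middle within 10 nt of a span end, and 10 regions of all 3 lists lay up to 10 nt outside a span.

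The label holds for the annotation, but not for the origin of the RNA. Near-identical copies share reads, and the sources used here do not say how reads that align to several places were handled. For every region below, RNA from the pseudogene and RNA from a parent gene or sister copy cannot be told apart. Of marker genes for the tissue, 7 of 12 keratinocyte genes had a region in all 3 lists, among them Krt5 and Krt15, while Krt1 and Krt14 had no site in any list. Regions were present for 1 of 5 melanocyte genes, 1 of 4 immune genes, 0 of 5 dermal fibroblast genes and 0 of 4 genes of endothelium and blood.

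No genome was used here, so sequence could be read only where a region fell inside a promoter window of the RefSeq table for GRCm38.p6, which runs from 250 bases before to 50 after a gene start. This held for 1 of the 994 regions and for 1 of 119 regions in the parent genes. They are shown because they are the sequences at hand for the regions and for a gene they derive from. Both are 30-nt windows, 5′ to 3′ on the strand of the sites, with capitals at each nucleotide that had a site in any list. The Gm2666 region fell in the promoter window of another gene, Gm2427, which lies on the opposite strand. It is not the start of Gm2666.
Gm2666, chr1:85496185-85496214, minus strand: tttgttatctaattTTgtaatactggggac
Rpl13a, chr7:45128696-45128725, minus strand: ggctgccgaagatggcgGaGGgGcaggttc
The pseudogene window carries its sites on a pair of adjacent thymines, and the Rpl13a window carries them on guanines. Each holds the triplet TGG 1 time, searched on the strand of the sites alone, and 49.5% of 32851 windows of the same 30-nt length in the promoter table hold it. Rpl13a, a protein of the large ribosomal subunit, has a single named pseudogene, Rpl13a-ps1, with 2 of the 994 regions. The patterns of sites in that copy had likeness 0.43 and 0.35 to the regions of Rpl13a, on a scale on which 1 means the same set of sites.

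Regions were spread thinly over many pseudogenes. Of 10540 annotated pseudogenes, 762 held at least 1 region (7.23%), and of these 571 held 1, 154 held 2, 30 held 3, 4 held 4 and 3 held 5. Pseudogenes annotated as transcribed had a region in 47 of 484 cases (9.71%, interval 7.22 to 12.7), and the others in 715 of 10056 (7.11%, 6.62 to 7.63). The intervals overlap. Spans with a region had a median length of 1035.5 nt, against 911 nt for spans without one. A region was 9 nt long in the median and 1 to 29 nt in range, and 42 rested on a single site in each list. Chromosome X held 7.24% of the regions and 9.58% of the pseudogenes.

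The sites of a pseudogene kept to 1 strand. Of 191 pseudogenes with 2 or more regions, 190 had all of them on the same strand, and Gm12026 was the exception. Over all regions, 488 of 994 were on the plus strand. Along the span, read 5′ to 3′ on the strand of the sites, 559 regions (56.2%, interval 53.1 to 59.3) lay in the part nearer the 3′ end. With the span cut into 10 equal bins, the last 2 bins held 148 and 144 regions and the first held 120, against 73 to 95 in each bin between them. Exons of the parents were not used here, so coding and untranslated stretches could not be separated.

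The pseudogenes with most regions, 3 in number, carried 5 each. In Gm6187, on chromosome 1, the regions lay 70, 297, 501, 527 and 721 nt from the 3′ end of the span, and the strongest of them reached best scores of 93.6, 67.2 and 121 in lists 1 to 3. Gm10167, inside the gene Mtus2 on chromosome 5, reached 283, 95.5 and 71.9 in its strongest region and 27.9, 26.1 and 43.0 in its weakest. Gm6828, on chromosome 7, had a region 69 nt from the 3′ end with scores of 107, 61.6 and 60.3, the highest of its regions in lists 1 and 2, while its region at 1032 nt was highest in list 3 with 76.05. The score is the authors' own value with no stated scale, so it ranks sites within a list. In Gm6187 and Gm10167 the same region was the highest in every list. Gm5850, Gm8775, Gm8796 and Vcp-rs held 4 regions each. With 3 regions each followed Gm19587, Gm6170, Gm5835, Gm13369, Gm13414, Gm14231, Gm5851 and Eef2-ps2.

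A parent gene could be read from the symbol or synonym of a pseudogene, such as Rpl31-ps10 for Rpl31, in 1762 of 10540 cases. These named pseudogenes held a region in 171 cases (9.70%, interval 8.36 to 11.2), against 591 of 8778 pseudogenes with no parent name (6.73%, 6.22 to 7.28). Together the named ones held 220 of the 994 regions (22.1%), from 93 parent names out of 904. Of the 93 names, 82 matched a protein-coding gene, and 62 of those genes (75.6%, interval 64.9 to 84.4) had a region of all 3 lists of their own, while 18.0% of 21856 protein-coding genes did. The other 20 had none. The matched genes were reached through copies chosen for a region in all 3 lists, and near-identical copies share reads. Their share and that of all protein-coding genes are therefore not on equal terms.

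Pseudogenes of ribosomal protein genes supplied the most regions. They held 78 of the 220 named regions (35.5%), in 64 of 324 pseudogenes of the family (19.8%). Members by parent were led by Rps2, a protein of the small subunit, with 8 regions in 5 of 12 pseudogenes, and by Rpl9 of the large subunit, with 7 in 4 of 9. Rpl17 had 6 regions in 6 of 11, and Rps27a, made as a fusion with ubiquitin, had 6 in 3 of 3. Other names of the same family had many copies and no region at all: 0 of 24 for Rps12, 0 of 15 for Rpl21, 0 of 14 for Rpl23a and 0 of 13 for Rpl19.

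Families were set by lists of parent symbols, so a name may not share the function of its family. The names listed as translation factors had the highest share of pseudogenes with a region, 12 of 20 (60.0%), with 24 regions. Tpt1, which encodes the translationally controlled tumor protein and was put here by that list, led with 11 regions in 5 of 7 pseudogenes. Eif1, a factor of start codon choice, had 3 regions in 3 of 3. Eef1a1, which delivers aminoacyl-tRNA to the ribosome, had 3 in 1 of 2, and Eef2, the translocation factor, had 3 in its 1 pseudogene. Chaperone names had a region in 24 of 74 pseudogenes (32.4%), and 21 of those 24 were copies of Ppia, the prolyl isomerase cyclophilin A. The remaining chaperone names were Dnajb6 with 3 regions and Dnajc19 and Fkbp1a with 1 each.

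Smaller families were present with few copies. Names listed as RNA-binding and splicing had a region in 5 of 10 pseudogenes, made up of Smt3h2 in 3 of 4, Hnrnpa1l2 and Ybx1. Smt3h2 is an older symbol of Sumo2, a ubiquitin-like modifier, and stands here only by the symbol list. Chromatin names had a region in 5 of 22, of which Hmgb1, an abundant DNA-bending protein, gave 4 of 9 pseudogenes and Ptma the other one. Mitochondrial names had 5 of 24, led by Atp5l, a subunit of ATP synthase, with 3 regions in 2 of 2. Glycolysis names had 3 of 13 (Aldoa, Gapdh and Ldha), cytoskeleton names 3 of 9 (Actb, Tubb2a and Tubb4b) and ubiquitin names 2 of 9 (Psma5 and Psmb5). Keratin and cornified envelope names had 0 of 4 and ferritin names 0 of 2. All other names had 48 of 1251 (3.84%). Among them Cbx3, a heterochromatin protein not on the chromatin list, had 5 of 6. The vomeronasal receptor names Vmn2r and Vmn1r had 2 of 147 and 0 of 146.

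**Figure D1:**
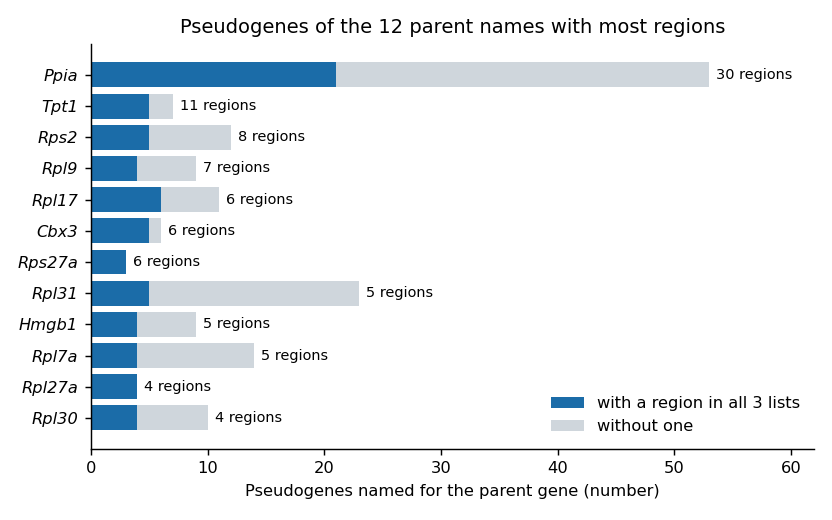
Number of pseudogenes (horizontal axis) named for each of the 12 parent genes with most regions, split into those with a region in all 3 lists (blue) and those without (grey), with the number of regions printed at the right. Ppia has 21 of 53 pseudogenes with a region, while all 3 Rps27a and all 4 Rpl27a pseudogenes have one.

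For several of these names the regions of all copies, added together, held more sites than the gene itself. The totals cover only copies chosen for a region in all 3 lists, 21 for Ppia, 5 for Rpl31 and 6 for Rpl17. They are not counts per copy. The 30 regions in Ppia pseudogenes held 140, 51 and 123 sites in lists 1, 2 and 3, against 6, 1 and 4 sites in the whole span of Ppia, none of which formed a region in all 3 lists. The Rpl31 copies held 25, 20 and 25 sites, against 1, 1 and 1 in Rpl31. The Rpl17 copies held 35, 24 and 32 sites, against 7, 0 and 4 in Rpl17. In these names the copies had more sites than the gene in every list. The same order held for Rpl7a (18, 14 and 20 sites in copies, against 0, 1 and 2 in the gene), Rps19 (22, 12 and 17 against 0, 0 and 5) and Rpsa, the laminin receptor and small subunit protein (23, 10 and 15 against 0, 0 and 5). Other genes had sites of their own. Eef2 held 40, 15 and 32 sites in 9 regions, where its pseudogene held 11, 10 and 12 sites. How reads were shared out among copies was not tested.

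For several parents, regions in different copies fell at similar distances from the 3′ end of the span. Distances were taken from the 3′ edge of the region. The 5 Rpl31 regions, in 5 pseudogenes on 5 chromosomes, all lay 385 to 389 nt from it. The 6 Rpl17 regions lay 340 to 362 nt from it, the 4 Rpl30 regions 393 to 415 nt and the 4 Rps19 regions 261 to 269 nt. The 30 Ppia regions fell into 3 places: 13 regions at 63 to 83 nt, 5 at 146 to 159 nt and 12 at 281 to 319 nt. Of the 6 Cbx3 regions, 5 lay 33 to 53 nt from the end and 1 lay at 1050 nt. The 11 Tpt1 regions fell into 5 places between 26 and 720 nt, of which 3 were shared by copies. Over 15 parents with at least 4 regions under a single named span, regions were grouped in steps of up to 30 nt. By this grouping 94 of 108 lay at a place shared by 2 or more pseudogenes. Steps can chain, so a place can be wide, as for 8 Rps2 regions at 821 to 895 nt. No background share was computed for this count. Vcp, an ATPase that unfolds proteins, has 1 named copy and so no shared place.

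**Figure D2:**
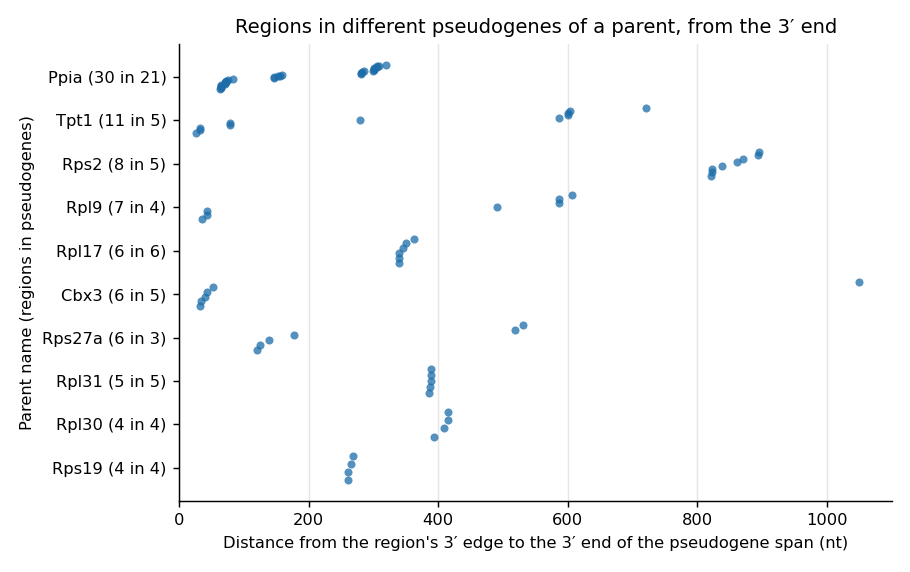
Distance in nt from the 3′ edge of each region to the 3′ end of its pseudogene span (horizontal axis) for 10 parent names, with the number of regions and pseudogenes in brackets. Each point is 1 region, and points of a name are set apart vertically for display only. Rpl31, Rpl17, Rpl30 and Rps19 regions each sit at 1 place, and Ppia regions at 3.

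The level at a shared place varied between copies. The Rpl31 copies had best scores of 101, 97.0 and 116 in Rpl31-ps10 in lists 1 to 3, but 8.0, 39.2 and 58.2 in Rpl31-ps8. The other Rpl31 copies lay between 9.79 and 33.4 in list 1, so Rpl31-ps10 stood above the rest in each list. The Rpl30 copies were closer to each other, at 94.6 to 128 in list 1, 147 to 227 in list 2 and 90.2 to 131 in list 3. Among the Ppia copies, the regions at 63 to 83 nt had best scores of 21.5 to 35.9 in list 1, 1.11 to 45.2 in list 2 and 17.4 to 67.6 in list 3. Rps27a copies were among the strongest, with 181 to 237, 158 to 169 and 201 to 223 at 121 to 138 nt from the end.

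The exact nucleotides of the sites were compared as well. A pattern is the set of nucleotides with a site in each list, counted from the start of the region on its strand. The likeness of a pair is the number of shared points over all points, after the best shift of up to 10 nt, and a pair was called alike at 0.7 or more. Of 137 regions whose parent gene had a region of its own, 61 (44.5%) were alike to a region of that gene. Against the other 61 parent genes, 360 of 8357 pairs of a region and a gene (4.31%) were alike. Among regions with at least 10 points, 40 of 80 were alike to their own parent and 2.62% of the pairs with other parents were. The match was complete, with likeness 1, in 27 regions of 3 to 22 points. Most complete matches were not particular to the parent. Among them, Tdg-ps2 was also alike to 3 of the other 61 parent genes, Fbl-ps2 to 1 and Rps27a-ps2 to 10. Got2-ps1 and Rps4x-ps, also among them, were alike to no other. No shift was needed in 57 of the 61 alike regions, but offsets start at each region's own edge, so this says little about position. The 61 alike regions came from 50 of 98 pseudogenes and 33 of 62 parent genes.

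Tdg-ps2 matched Tdg, a thymine DNA glycosylase, at all 22 points. Its best scores were 219, 139 and 162 in lists 1 to 3, against 219, 139 and 163 in Tdg. Got2-ps1 matched Got2, a mitochondrial aminotransferase, at all 16 points, with 59.4, 15.5 and 106, against 59.5, 7.25 and 107 in Got2. So the pair agreed in lists 1 and 3 and differed in list 2. Fbl-ps2 matched Fbl, the methyltransferase fibrillarin, at 12 points, with 94.4, 35.4 and 49.1, against 94.5, 36.4 and 57.3 in Fbl. Rps4x-ps matched Rps4x at 11 points, with 124, 73.9 and 65.6, against 121, 63.2 and 63.3 in Rps4x.

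Tpt1-ps3 had 3 regions on chromosome 6, and each matched a region of Tpt1 with likeness 1, at 16, 12 and 3 points. In the first the best scores were 87.1, 40.3 and 81.5, against 95.8, 50.9 and 78.4 in Tpt1. In the second they were 89.4, 45.4 and 98.2, against 91.1, 47.7 and 101 in Tpt1. In the third they were 53.1, 28 and 50.7, against 53.6, 28.5 and 51.3 in Tpt1. The third region is 1 nucleotide with a site in each list, so it has likeness 1 to any other such region. It was alike to 9 of the other 61 parent genes. The second and the third region are 20 nt apart in both the copy and the gene.

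Over the 61 alike pairs the scores were compared by the percentile of the best site within its list, since the score has no stated scale. The difference in percentile, pseudogene minus parent, had a median of 0.959 points in list 1 (quartiles -0.135 and 4.47), 1.64 in list 2 (-0.590 and 8.91) and 0.524 in list 3 (-0.557 and 2.93). The pseudogene score was the higher one in 39, 41 and 39 of the 61 pairs. Where several alike regions were possible the most alike was taken, and pairs from 1 pseudogene share their copy, so the pairs are not independent.

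**Figure D3:**
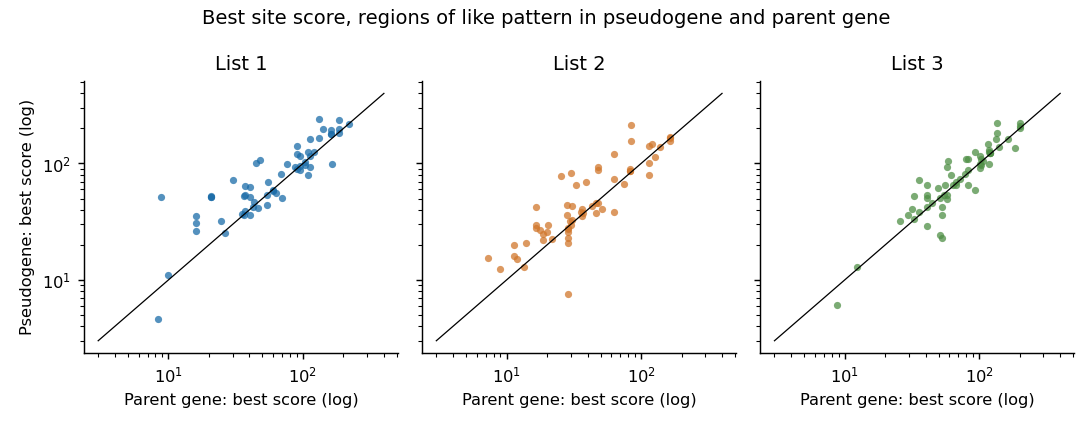
Best site score of the pseudogene region (vertical axis, log scale) against that of the most alike region in its parent gene (horizontal axis, log scale) for the 61 alike pairs, with 1 panel a list and 1 point a pair; the line marks equal scores. In lists 1 to 3, 39, 41 and 39 of the 61 points lie above the line.

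Copies were also alike to each other. Among pairs of regions from different pseudogenes of the same parent, 98 of 630 (15.6%) were alike, against 545 of 23400 pairs (2.33%) from different parents. All 10 Rpl31 pairs, all 6 Rpl30 pairs, all 3 Smt3h2 pairs and 14 of 15 Rpl17 pairs were alike. The Smt3h2 regions are 2 nt long with a site at each nucleotide in every list, so any such regions are alike. Each of them was also alike to 6 of the other 61 parent genes. The share was low for other names: 2 of 6 pairs for Rps19, 8 of 25 for Rps2, 1 of 6 for Rpl27a, 5 of 48 for Tpt1 and 27 of 425 (6.35%) for Ppia. A shared place did not always come with a shared pattern. Of pairs from different pseudogenes at the same place, over the 15 parents with at least 4 regions, 84 of 252 (33.3%) were alike. For Ppia this was 25 of 153 (16.3%), for Tpt1 3 of 9 and for Cbx3 3 of 10, while for Rpl9 it was 6 of 6 and for Rps27a 4 of 4.

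Most pseudogenes have no parent name, and the spacing of regions gave links that do not need one. Pseudogenes with and without a parent name were both searched. A link was counted when 2 regions of a pseudogene lay at the same distance, to the nucleotide and within 5000 nt, as 2 regions elsewhere, and both patterns had likeness 0.75 or more without a shift. Of 953 comparisons of equal spacing, 56 (5.88%) were links, from 32 pseudogenes. No share for unrelated regions was computed, so how many links short patterns give by themselves is unknown. Gm7047 was linked to Lratd1 at 28 nt by patterns of 3 and 4 points. Its first region had 13.4, 4.12 and 36.5 in lists 1 to 3, against 57.4, 31.1 and 49.7 in Lratd1. Gm5478 on chromosome 15 was linked to the epidermal keratin gene Krt6a by regions 13 nt apart. At the first of these it had best scores of 424, 183 and 422 in lists 1 to 3, against 422, 177 and 417 in Krt6a. Both regions matched with likeness 1, at 7 and 5 points. The second region of Gm5478 had 414, 183 and 407. Csnk2a3 was linked to Csnk2a1, a catalytic subunit of casein kinase 2, at 367 nt, with 284, 185 and 310 in the first region, against 226, 145 and 266 in Csnk2a1. Gm14698 was linked to Styx, a phosphatase-like protein, at 2355 nt, with 34.2, 11.4 and 37.8, against 34.2, 11.4 and 37.6 in Styx.

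Links also joined pseudogenes into sets. Regions 28 nt apart were shared by Atp5l-ps1, Gm10221, Gm4045, Gm4853, Gm6822 and Gm9712 with Atp5l itself. Gm7729, Gm8789 and Gm10052 shared a spacing of 73 nt with likeness 1 at both regions, of 3 and 8 points. A 3-point pattern holds 1 site in each list, so its likeness says little. Gm5850 and Gm5851, both on chromosome 3, shared spacings of 40, 685 and 725 nt. Gm6361 and Gm6565 were linked to Ube2v2, a ubiquitin-conjugating enzyme variant, at 21 nt, where the second region of each had 3 points. Rps3a2 was linked to Rps3a1 at 42 nt. Not every link joins copies of a gene by name: Hmgb1-ps7 was linked to Zscan18 at 20 nt by patterns of 4 and 7 points.

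The best score of a region was ranked as a percentile within each list and averaged over the lists. The 10 regions with the highest mean came from 9 pseudogenes. Of these 10, 4 lay in pseudogenes annotated as transcribed, which hold 62 of all 994 regions (6.24%). The 10 are not independent, since 5 are alike to 1 region of Hnrnpa1 and 2 lie in Gm5478. First was Gm5643 on chromosome X, with best scores of 418, 222 and 270 in lists 1 to 3, followed by Gm8789 with 427, 222 and 257 and Gm7729 with 417, 226 and 255. Gm6296 had 384, 214 and 277, and Gm10052 had 417, 217 and 254. These 5 were alike to 1 region of Hnrnpa1, an abundant splicing repressor, which had 421, 220 and 293. Gm8789, Gm7729 and Gm10052 matched it with likeness 1, Gm5643 with 0.89 and Gm6296 with 0.80. Further down, at rank 13, came Hnrnpa1l2-ps, with 394, 205 and 259. The others of the 10 were 2 regions of Gm5478, already given, and regions of Gm5928 (384, 221 and 259), Gm8652 (342, 240 and 267) and Gm15032 (304, 253 and 276). Short patterns were also alike across genes of other names. The 9-point pattern of Gm5928 had likeness 1 to regions of Krt5, Csmd3 and Gnb2. The 7-point first region of Gm5478 had likeness 1 to a different region of Hnrnpa1 as well as to Krt6a.

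Some scores were repeated digit for digit. A repeated series, meaning 2 or more sites whose deposited scores and order were the same in another region of that list, occurred in 14 of the 994 regions (1.41%), against 43 of the 9649 regions of all 3 lists (0.446%). The share was 0.776% without list 1 and 0.902% without list 2. Gm14165 held a region whose series in all 3 lists, of 4, 4 and 3 sites, were those of a region of Rplp0, a stalk protein of the large ribosomal subunit. Its best scores were 170, 289 and 175, digit for digit as in Rplp0. Gm14698 repeated series of 5 and 4 sites of Styx in list 1, and 1 of 2 sites in list 2. Gm10698 repeated 4 sites of Tmed2, a protein of vesicle transport, in list 3. Gm10184 and Gm10259 repeated each other in lists 1 and 3, and Pgk1-rs7 repeated 3 sites of Gm5537 in list 1.

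Of the regions, 249 of 994 (25.1%, interval 22.4 to 27.9) also lay inside the span of a protein-coding gene, here called the host, with 188 hosts in all, while 692 lay in no protein-coding or long noncoding RNA span and 53 in a long noncoding RNA span alone. In 119 of the 188 hosts (63.3%) there was no region of all 3 lists outside pseudogene spans, and those hosts held 166 of the 249 regions. Of all 21856 protein-coding genes, 17916 (82.0%) had no such region. Where the host's strand was known and the host single, 88 of 198 regions (44.4%, interval 37.4 to 51.7) lay on the host's strand. Of regions in protein-coding genes outside pseudogene spans, 4576 of 4919 (93.0%, interval 92.3 to 93.7) lay on the gene's strand, and the intervals do not overlap. In transcribed pseudogenes 12 of 18 regions lay on the host's strand (66.7%, interval 41.0 to 86.7), and in the others 76 of 180 (42.2%, 34.9 to 49.8). For regions with a parent name it was 10 of 30 (33.3%, 17.3 to 52.8).

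Mtus2, which encodes a microtubule-associated protein, held 5 regions, all in Gm10167 and all on the strand opposite to Mtus2, and it held no other region. Sv2c, a synaptic vesicle protein, held 4, of which 3 in Gm17190 lay opposite to it and 1 in Gm20075 lay on its own strand. Gm7592 held 3 regions, in Gm2666 and Gm7281, and Pnpla7, a lysophospholipase, held 3 in Gm13369, opposite to its strand.

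**Figure D4:**
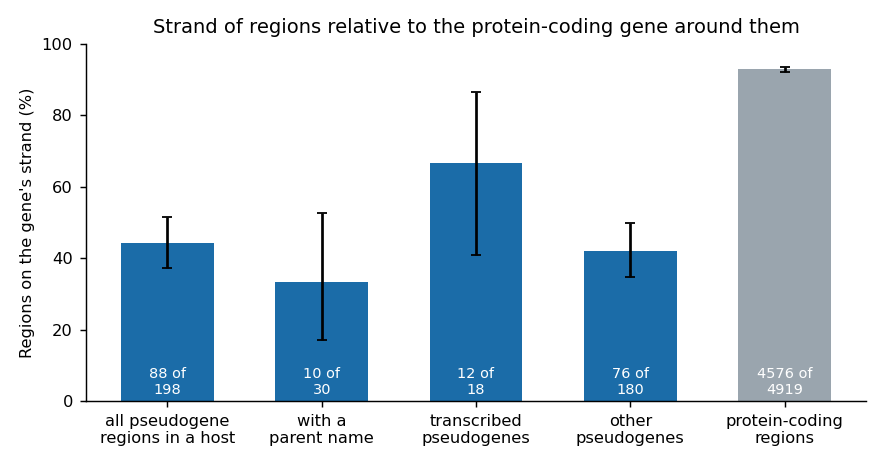
Share in percent of regions on the strand of the protein-coding gene around them, for regions in pseudogene spans (blue; all, with a parent name, in transcribed and in other pseudogenes) and for protein-coding regions outside pseudogene spans (grey). Bars start at 0, error bars are 95% exact binomial intervals and numbers are regions; the share is 44.4% for all pseudogene regions and 93.0% for protein-coding regions.

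Regions in pseudogenes had somewhat higher scores than those in protein-coding genes. The median percentile of a region's best site within its list was 87.5, 78.2 and 83.9 in lists 1 to 3, against 80.5, 73.3 and 75.5 for 6328 regions in protein-coding spans. The difference averaged 6.75 ± 1.72 percentile points (SD, n = 3 lists) and was positive in 3 of 3 lists, with p = 0.25 by an exact two-sided sign-flip test over lists, the smallest that 3 lists allow. It was 3.47 points when the 50% of sites with the highest scores were used. They also held more sites, 4.45, 2.35 and 3.85 per region, against 3.67, 1.94 and 3.11, a difference of 0.645 ± 0.199 (SD, n = 3 lists) that was positive in 3 of 3 lists, with exact p = 0.25. Against 1840 regions outside every gene span the percentile difference was 3.36, -1.31 and 7.83 in lists 1 to 3, so the lists did not point the same way (exact p = 0.5). The difference in sites per region to those regions was 0.161, -0.293 and 0.0125, with a mean of -0.0401 ± 0.232 (SD, n = 3 lists) and exact p = 1.0, and it too changed sign between lists.

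At least 1 nucleotide was a site in all 3 lists in 872 of the 994 regions (87.7%, interval 85.5 to 89.7). This was so for 79.9% of protein-coding regions (78.9 to 80.9), for 85.8% of regions outside gene spans (84.1 to 87.3) and for 82.3% of all regions of 3 lists. The interval of the pseudogene regions lies above that of the protein-coding ones and overlaps that of regions outside gene spans. Intervals cover counting error only and treat regions as independent, which copies of a gene are not.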

How the data were processed

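Per the labels, 6 FLAG immunoprecipitates and 6 inputs from biological replicates 1 to 6 were sequenced by eCLIP. Per the file headers, the authors deposited sites called with input, in 3 lists of replicate pairs, each with a score of no stated scale. PureCLIP stands in a title in the labels, without its step. The highest score was 708.396 in every list. Tools in the submitters' processing notes are cutadapt 1.16, HISAT2 2.1.0 and HOMER, with GRCm38 and mm10 as builds. For trimming, duplicate removal, multiply aligned reads and calling, settings were not given in the sources used here. Calling on pooled replicates hides the spread within a list, and where an aligner places a read among near-identical copies can add or remove sites in a pseudogene.

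Regions were built with Python 3.11.15, pandas 2.3.3, numpy 2.4.6 and SciPy 1.17.1, and the steps were tested on simulated data. Coordinates are 1-based. Spans came from a RefSeq gene table of GRCm38.p6 with 49755 rows used and 242 rows with scaffold coordinates left out. That table has no strand: host strands were taken from RefSeq's promoter table. Parent names came from symbols and synonyms ending in -ps with an optional number. The 3′ end of a span was taken on the strand of the sites. Intervals are Clopper-Pearson at 95%. P-values over lists take the pooled lists as units. Where the difference has the same sign in all 3 lists, the sign-flip p is 0.25 whatever the spread. The SD gives the spread between pooled lists, not between libraries.

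Named were the 15 pseudogenes and 12 parents with most regions, the 4 leading parents of each family, the 10 regions with the highest mean score percentile, the 5 leading hosts and the 5 largest repeated series, with ties to the lower chromosome and start. A host gene that this rule names is not reported here. Regions, lists and rules were chosen with earlier results of these data known. The pattern threshold of 0.7, the spacing links with their 0.75, the places from the 3′ end and the strand comparison with hosts were chosen after seeing the data, as were further examples. Alternatives changed the joining distance, the sites used, the overlap and the set of pseudogenes, and left out each list.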

Additional observations from a re-analysis of the deposited data

How the results depend on the processing

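The number of regions, 994, moved by less than 1.5 times under each alternative tried. It was 762 with the 50% of sites with the highest scores, 739 for regions under a single pseudogene span and no protein-coding span, and 1160 to 1331 without 1 list. The share in a host, the share with a ribosomal protein parent and the share on the host's strand stayed within their intervals under each alternative that could be computed. The share with a repeated series, 1.41%, did so too, but its interval is wide: it was 0.776% without list 1 and 0.902% without list 2, lower by over 1.5 times. For a single pseudogene span and no protein-coding span the host shares have no value by construction. Of 91 values under alternatives, 78 kept within the spread or interval of the main value, or within 1.5 times for the number of regions, and no difference changed sign.

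The percentile difference to protein-coding regions was 3.47 with the 50% of sites with the highest scores, against 6.75, and 7.23 to 9.70 without 1 list. The ratio of sites per region, pseudogene over protein-coding, was 1.22, with 1.20 at a joining distance of 5 nt or 20 nt, 1.24 with the 50% of sites with the highest scores and 1.21 to 1.27 without 1 list; its spread over lists is narrow. The share with the same nucleotide in all lists was 90.2% with the 50% of sites with the highest scores and 88.6% to 92.8% without 1 list, where only 2 lists have to share it. The share like a region of the own parent gene, 44.5%, was 36.0% at a joining distance of 50 nt, 65.0% at a likeness of 0.5 and 28.5% at 0.9, the last 2 by the construction of the threshold, and 37.6% to 44.8% without 1 list. For the other changes the cause was not tested.

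No paired analysis was possible because the lists pool the CLIP replicates and hold no values for inputs or single libraries. Depth is unknown, the 3 lists cannot reach a p below 0.25, and reads shared between near-identical copies cannot be separated in these lists.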
